A study of Mus with 7 samples.

Results

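The respiratory chain genes of fetal liver-derived macrophages (FLMs) were read from single-cell RNA-seq counts as 2 sets, one encoded in the mitochondrial genome and one in the nucleus. Members were chosen by symbol: mt-Nd, mt-Co, mt-Cytb and mt-Atp genes, and the nuclear Nduf subunits, Uqcr, Cox4 to Cox8 and Sdh genes, with pseudogenes left out and at least 10 UMIs (unique molecular identifiers, 1 per captured transcript) in the cells kept. Of 80 matching symbols, 76 were members, 13 mitochondrial and 63 nuclear, out of 14399 genes with at least 10 UMIs. Cox6b2, Cox8b and Cox8c had no UMI and Cox7b2 had 1 UMI. FLMs are wild-type mouse macrophages that are expanded from fetal liver in culture with GM-CSF, here at 30 ng/mL in every library, and the labels name liver as the tissue and 1 line as the source. The Con library was collected in 10% fetal bovine serum before any treatment. The other 6 libraries came from cells held for 24 h in 0.25% serum with either vehicle (Veh, 8.3 µM bovine serum albumin) or 25 µM docosahexaenoic acid on the same 8.3 µM albumin (DHA). In each arm 1 library was collected without LPS (Veh.LPS.0, DHA.LPS.0), and for the others the medium was replaced by low-serum medium with 20 ng/mL lipopolysaccharide (LPS) for 1 h or 4 h (Veh.LPS.1 and DHA.LPS.1, Veh.LPS.4 and DHA.LPS.4). Con therefore differs from Veh.LPS.0 in serum, albumin and time in culture at once, and these cannot be told apart. An LPS library likewise differs from the 0 h library of its arm in LPS, fresh medium and added time in low serum. These cannot be told apart either, and hours of LPS stand for all of them below.

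The respiratory chain passes electrons from NADH and succinate to oxygen through complexes I to IV, and the proton gradient that results drives ATP synthase, complex V. Complex II is wholly nuclear-encoded, whereas the core membrane subunits of complexes I, III, IV and V come from the mitochondrial DNA, which is transcribed as long polycistronic RNAs that are then cut into single messages. Macrophages exposed to LPS are known for a change in mitochondrial metabolism in which succinate accumulates and electron flow is redirected, and fatty acids such as DHA are both fuel and signals for the same organelle.

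There was 1 library per condition, so no comparison has a replicate check and no p-value is given. A level is given in CPM, the UMIs of a gene summed over kept cells per 1000000 UMIs of the library, and intervals are exact 95% intervals that cover counting error only. A gene is counted as higher or lower when the log2 of its CPM ratio lay beyond 0.32 or -0.32 and it had a UMI in at least 50% of the kept cells of either library, a rule of size and not a test. Kept cells had more than 20000 UMIs, at least 2000 genes and under 20% of UMIs from mt- genes, which left 692 to 3073 cells and 22045775 to 125716982 UMIs per library. Kept libraries shared between 0 and 4 cell barcodes per pair. All 9 macrophage markers had UMIs in every library, with a summed level of 5817 to 7089 CPM. All 4 mast cell markers were at 0, and the neutrophil list summed to at most 6.99 CPM. The hepatocyte list summed to 5.48 to 7.66 CPM, with 1 of its 4 markers present in every library. Libraries differed in the barcodes the mt- limit removed: 29.0% to 54.7% of all barcodes in Con and the Veh libraries were at or over 20% mt- UMIs, against 74.4% to 80.0% in the DHA libraries.

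The 13 mt- genes of the files are the 13 mitochondrial members, so the mt- limit caps their summed level directly, and that sum is given as a description. In kept cells the mitochondrial members held 7.72% of UMIs in Con, 7.72%, 7.20% and 7.20% in the Veh libraries at 0, 1 and 4 h of LPS, and 7.67%, 7.49% and 6.94% in the DHA libraries. The libraries lay close together on this measure. Over all barcodes, with no limit, the same shares were 10.5%, 11.5%, 10.5% and 13.3% in Con and the Veh libraries and 22.7%, 21.2% and 22.1% in the DHA libraries. The DHA libraries stood apart on that count and not in kept cells.

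The nuclear members followed the LPS time course in CPM more than the mitochondrial ones. As a share of the UMIs that are not mitochondrial they held 2.11% in Con, 1.96%, 1.75% and 1.55% in the Veh libraries at 0, 1 and 4 h, and 1.93%, 1.76% and 1.54% in the DHA libraries at the same times. Each arm was lower at each later hour, and the arms lay close together at every hour. Over all barcodes the shares were 2.1%, then 1.93%, 1.73% and 1.47% with vehicle and 1.86%, 1.70% and 1.39% with DHA, in the same order within each arm. The number of mitochondrial UMIs per nuclear-member UMI was 3.97 in Con, stood at 4.26, 4.43 and 5.01 in the Veh libraries and at 4.30, 4.61 and 4.85 in the DHA libraries. This ratio does not depend on how libraries are scaled. It does depend on the mt- limit, being 5.58 in Con, 6.76 to 10.5 in Veh and 15.7 to 20.4 in DHA over all barcodes.

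Single cells showed the same steps. After each kept cell was thinned to 20000 UMIs, the median count of nuclear-member UMIs per cell was 391 in Con, 369, 328 and 291 across Veh and 363.5, 329 and 287 across DHA. The median count of mitochondrial UMIs was 1509 in Con, 1495, 1387 and 1348 across Veh and 1490.5, 1449 and 1320 across DHA. The middle 90% of cells ran from 207 to 356 nuclear-member UMIs in Veh.LPS.4 and from 291 to 433 in Veh.LPS.0, so the cell distributions overlapped while their centres moved. Between cells of 1 library, the nuclear share of non-mitochondrial UMIs had an SD of 0.209 to 0.254 percentage points, against 0.0903 to 0.106 from counting alone.

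**Figure D1:**
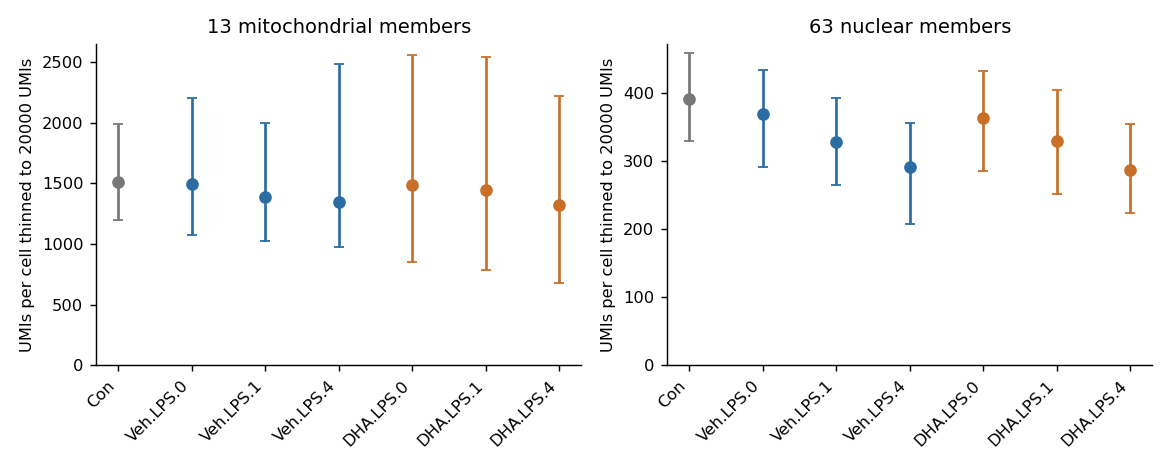
Respiratory chain UMIs per cell after thinning to 20000 UMIs, for the 13 mitochondrial members (left) and the 63 nuclear members (right) in each of the 7 libraries; points are medians over kept cells and bars run from the 5th to the 95th percentile of cells, not of replicates. The nuclear medians step down from 369 to 291 in Veh and from 363.5 to 287 in DHA over 4 h of LPS, while the mitochondrial medians, which the mt- limit caps, stay between 1320 and 1509.

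The composition of the mitochondrial transcripts also differed between libraries. mt-Nd1, the first protein gene along the heavy-strand transcript and a core membrane subunit of complex I, held 7.31% of mitochondrial UMIs in Con, 5.40% in Veh.LPS.0 and 4.25% in DHA.LPS.0. At 1 and 4 h of LPS it was higher again, at 5.85% and 6.70% in Veh and at 5.17% and 5.92% in DHA. Con was thus highest, and DHA was below Veh at each hour. mt-Nd2, its neighbour and another complex I subunit, held 6.27% in Con, 4.98%, 5.43% and 5.13% across Veh and 4.22%, 4.88% and 5.19% across DHA, so DHA was below Veh at 0 and 1 h but not at 4 h. mt-Co1, the subunit of complex IV that carries the catalytic haem-copper centre, went the other way, with 9.41% in Con, 11.7%, 10.4% and 10.1% across Veh and 12.8%, 12.8% and 10.0% across DHA.

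Set against each other, mt-Co1 and mt-Nd1 gave a measure that neither the depth nor the scaling of a library can change. It is compared between libraries only, since capture differs from gene to gene, and the pair was picked after its values were seen. There were 1.29 mt-Co1 UMIs per mt-Nd1 UMI in Con (95% interval 1.28 to 1.29). The ratio was 2.18 in Veh.LPS.0, 1.78 in Veh.LPS.1 and 1.51 in Veh.LPS.4. It was 3.02 in DHA.LPS.0, 2.47 in DHA.LPS.1 and 1.69 in DHA.LPS.4. The low-serum vehicle medium and DHA each went with a higher ratio and each further hour of LPS with a lower one, in both arms, and by 4 h the arms had moved closer together. The order of the 7 libraries stayed the same over all barcodes, where the ratio was 1.19 in Con, 1.99, 1.67 and 1.37 across Veh and 2.51, 2.01 and 1.40 across DHA. In the deep barcodes that the mt- limit had removed (15 to 102 per library) it was 1.21 in Con, 1.94, 1.82 and 1.33 across Veh and 2.90, 2.24 and 1.57 across DHA. The shift was spread over the cells: the median over kept cells of the log2 ratio of mt-Co1 to mt-Nd1, with 1 UMI added to each, was 0.34 in Con, 1.09, 0.79 and 0.55 across Veh and 1.56, 1.28 and 0.71 across DHA. The lowest 5% of DHA.LPS.0 cells ended at 0.89, close to the highest 5% of Con cells, which began at 0.87.

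**Figure D2:**
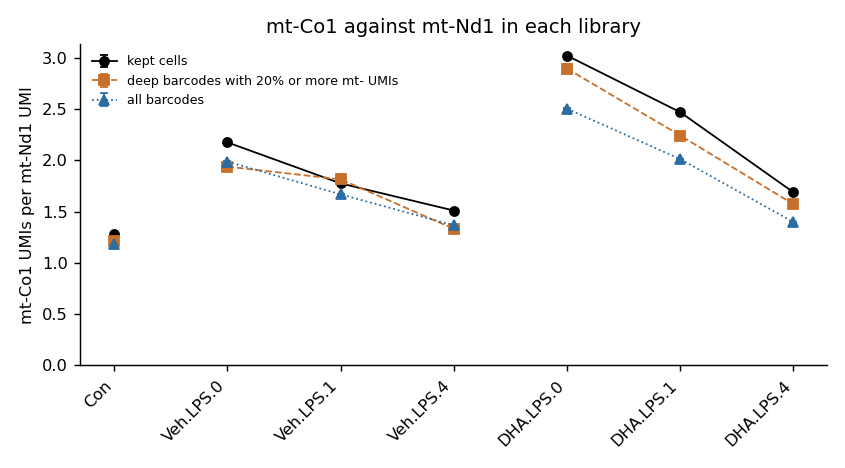
mt-Co1 UMIs per mt-Nd1 UMI in each library, in kept cells, in deep barcodes with 20% or more mt- UMIs and over all barcodes; vertical bars are 95% counting intervals, mostly smaller than the points, and lines join the hours of 1 arm. In all 3 sets of barcodes the ratio is lowest in Con, highest in DHA.LPS.0 and lower at 4 h than at 0 h of LPS.

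Other mitochondrial complex I and complex IV genes shared this split in part. The 3 complex IV genes together held 2.33 UMIs per UMI of the 7 complex I genes in Con, 3.1, 2.88 and 2.70 across Veh and 3.74, 3.33 and 2.83 across DHA. With mt-Co1 and mt-Nd1 left out of the sums, it was 2.86 in Con, 3.51, 3.39 and 3.33 across Veh and 4.01, 3.71 and 3.36 across DHA. mt-Nd6, mt-Nd5 and mt-Nd4l did not follow the split throughout: by log2 ratio of their shares, mt-Nd6 was at 0.30 and mt-Nd5 at 0.06 in Veh.LPS.0 against Con, and the 3 genes were at -0.34, -0.18 and -0.14 in Veh.LPS.4 against Veh.LPS.0. mt-Nd3, a small complex I subunit, held 1.51% in Con, 1.30%, 1.2% and 1.35% across Veh and 1.08%, 1.10% and 1.20% across DHA. mt-Nd4, also of complex I, differed little, with 4.78% to 5.29% in the 7 libraries. mt-Nd5, the largest complex I subunit gene here, was highest in Veh.LPS.0 (0.769%) and lowest in DHA.LPS.4 (0.659%). The complex IV genes mt-Co2 and mt-Co3 ran from 17.4% to 20.5% and from 23.5% to 25.0%, mt-Co2 being highest in DHA.LPS.0. mt-Cytb, the only mitochondrial subunit of complex III, was at 8.92% in Con, 7.64% in Veh.LPS.0 and 7.80% in DHA.LPS.0, and higher at 4 h of LPS, at 8.30% and 8.69%. mt-Atp6, the proton channel subunit of complex V, held 18.2% to 20.2%.

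Some of these genes overlap on the RefSeq mitochondrial genome, and how reads in the shared bases were counted is uncertain. mt-Atp8 and mt-Atp6 share 43 bases, mt-Nd4l and mt-Nd4 share 7, mt-Nd5 and mt-Nd6 share 14, and mt-Atp6 and mt-Co3 share 1. mt-Atp8 held 0.151% to 0.242% and mt-Nd4l 0.314% to 0.448%, while mt-Nd6, the 1 gene read from the other strand, held 0.0783% to 0.104%. Nuclear copies of mitochondrial DNA can also take reads, and this was not examined. By CPM, mt-Nd1 and mt-Nd2 were lower past that limit in Veh.LPS.0 against Con, at log2 ratios of -0.44 and -0.33, and mt-Nd1 and mt-Nd4l in DHA.LPS.0 against Veh.LPS.0, at -0.35 and -0.37. mt-Co1 was lower and mt-Nd1 higher in DHA.LPS.4 against DHA.LPS.0, at -0.51 and 0.33. In Veh.LPS.4 against Veh.LPS.0, mt-Atp8 and mt-Nd6 were lower, at -0.42 and -0.44. In DHA.LPS.1 against Veh.LPS.1, mt-Co1 was higher at 0.36 and mt-Atp8 lower at -0.47. For scale, 2 of 13 lower in Veh.LPS.0 against Con was a smaller share than the 28.2% of all genes. So was 2 of 13 in Veh.LPS.4 against Veh.LPS.0, where it was 47%. The 1 lower and 1 higher of 13 in DHA.LPS.4 against DHA.LPS.0 were below 44.3% and 17.7%. For the 2 of 13 lower in DHA.LPS.0 against Veh.LPS.0, all genes stood at 6.15%, a smaller share. The 1 of 13 each way in DHA.LPS.1 against Veh.LPS.1 stood beside 4.37% higher and 7.11% lower. Where mt-Atp8 was lower, mt-Atp6 of the same message was at -0.03 in Veh.LPS.4 against Veh.LPS.0 and -0.08 in DHA.LPS.1 against Veh.LPS.1. Where mt-Nd4l was lower, mt-Nd4 was at -0.006. What sets the genes of 1 message apart in these counts was not tested. The calls of mitochondrial members depend on the scaling, most of all in 4 h against 0 h of LPS. With TMM (trimmed mean of M values) scaling, which adds 0.43 in Veh and 0.30 in DHA to every log2 ratio of 4 h against 0 h, mt-Atp8 and mt-Nd6 in Veh were at 0.01 and -0.006 and mt-Co1 in DHA at -0.21, and none of the 13 was lower past the limit. There 6 of 13 were higher in Veh and 4 of 13 in DHA, mt-Nd1 among them at 0.64 and 0.63. Of all genes, 39.0% were higher and 25.2% lower in Veh with TMM, and 32.2% higher and 27.6% lower in DHA. The calls named above for the other comparisons held with TMM, and some were added. At 1 h against 0 h, mt-Atp8 in Veh and mt-Nd1 in DHA were higher at 0.35 and 0.36, where 11.2% and 13.4% of all genes were higher. In DHA.LPS.4 against Veh.LPS.4, mt-Nd1 and mt-Nd3 were lower at -0.36 and -0.35, where 10.4% of all genes were lower.

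**Figure D3:**
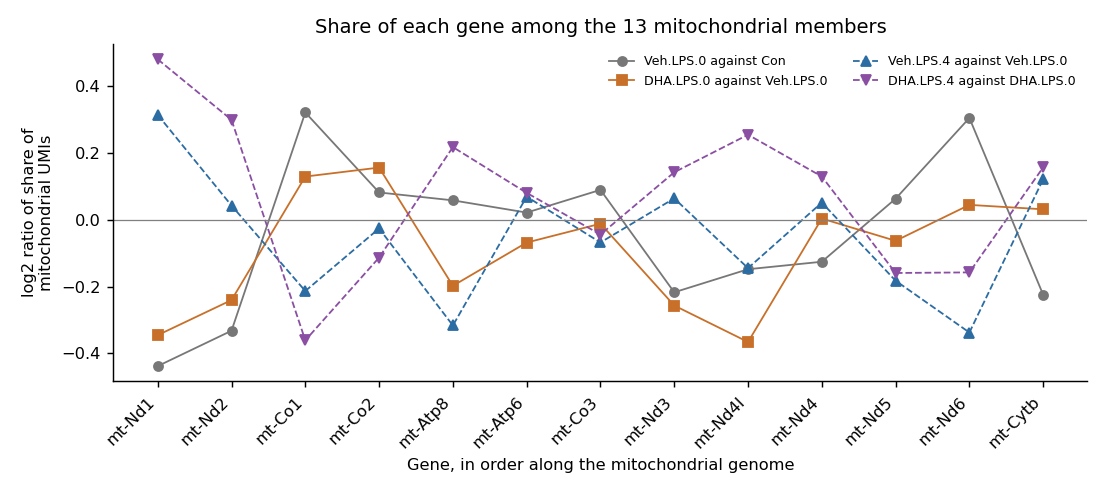
log2 ratio of each gene's share of the 13 mitochondrial members' UMIs in 4 comparisons of kept cells, with genes in their order along the mitochondrial genome; lines join the genes of 1 comparison and there is no error bar, since each point compares 1 library with 1 other. mt-Nd1 lies at -0.44 in Veh.LPS.0 against Con and at -0.35 in DHA.LPS.0 against Veh.LPS.0, and at 0.31 and 0.48 after 4 h of LPS in Veh and DHA, with mt-Co1 on the opposite side each time.

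After 4 h of LPS every nuclear member was below its 0 h CPM in both arms, but so were most genes of the cell, and the direction for the set depends on the scaling. The median log2 CPM ratio over the 63 nuclear members was -0.38 in Veh.LPS.4 against Veh.LPS.0 and -0.36 in DHA.LPS.4 against DHA.LPS.0, and with TMM scaling it was 0.06 and -0.06. Over all genes past the 50% limit the median was -0.28 and -0.24 in CPM, and 0.15 and 0.06 with TMM. Relative to all genes, the nuclear members with a UMI in 50% of cells had a median lower by 0.08 in Veh and 0.10 in DHA on the log2 scale, a gap that no scaling of whole libraries changes. Of those members, 33 of 59 in Veh and 33 of 60 in DHA were lower past that limit and none was higher. The background was 47% of all genes lower and 17.6% higher in Veh, and 44.3% lower and 17.7% higher in DHA, so the share of members that were lower was near that of all genes. With TMM, 4 members in Veh and 6 in DHA were lower, where 25.2% and 27.6% of all genes were lower, and 5 in Veh were higher, where 39.0% of all genes were.

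At 1 h the members had moved less. The median log2 CPM ratio was -0.17 in Veh and -0.16 in DHA, against -0.09 and -0.11 over all genes. No nuclear member passed that limit in either direction, where 8.41% of all genes were higher and 9.26% lower in Veh, and 9.14% higher and 13.5% lower in DHA. Of 60 members, 47 stepped down from 0 to 1 to 4 h in Veh and 55 did so in DHA, in CPM, and none stepped up. Of all 6850 genes past the 50% limit in any library, 52.2% stepped down in Veh and 48.7% in DHA.

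**Figure D4:**
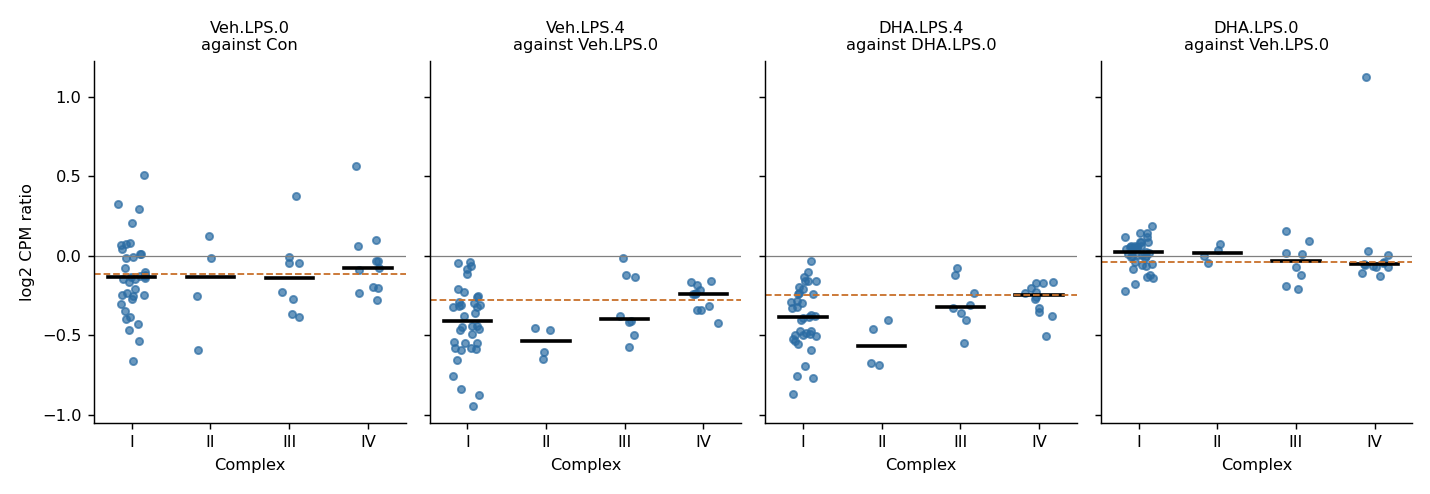
log2 CPM ratio of each nuclear member with a UMI in at least 50% of kept cells, by complex, in 4 comparisons of 1 library with 1 other; points are genes, black bars their medians, the grey line is 0 and the dashed line the median of all genes past the same limit. At 4 h of LPS the complex II medians, -0.54 in Veh and -0.57 in DHA, lie farthest below the dashed line and the complex IV medians, -0.24 and -0.25, lie at it; TMM scaling would move every point and the dashed line of a 4 h panel up by 0.43 in Veh and 0.30 in DHA, which puts the medians of complexes I, III and IV above 0 in Veh.

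At 4 h of LPS complexes II and IV had the lowest and the highest median of the 4 complexes in both arms, while those of I and III were alike in Veh and the members of different complexes overlapped. With TMM the medians of complexes I, II, III and IV were 0.02, -0.11, 0.04 and 0.19 in Veh and -0.08, -0.27, -0.02 and 0.05 in DHA. Complex II alone had a median below 0 in both arms, and neither value passed the size limit of -0.32. The CPM values that follow give the order of the complexes rather than their direction. Their counts are to be read against 47% of all genes lower in Veh and 44.3% in DHA. Few of the members counted as lower in CPM were lower past the limit with TMM, as given above. Complex I, the NADH dehydrogenase, had a median log2 CPM ratio of -0.41 in Veh and -0.38 in DHA at 4 h. Of the 36 genes placed in it by their Nduf symbol, 21 were lower past that limit in each arm. Complex II, succinate dehydrogenase, had -0.54 and -0.57 with all 4 subunits lower in each arm, which was 0.26 and 0.32 below the median of all genes. Complex III, the cytochrome bc1 complex, had -0.39 and -0.32, with 5 and 4 of the 8 members taken by symbol lower. Complex IV, cytochrome c oxidase, had -0.24 and -0.25, with 3 of 11 and 4 of 12 lower, and differed from the median of all genes by 0.04 and -0.002. The 12 include Cox6a2, which was over the 50% limit only in DHA.LPS.0. In ratios free of scaling, nuclear complex IV UMIs per nuclear complex I UMI were 0.989 in Con, 1.05, 1.06 and 1.16 across Veh and 1.02, 1.04 and 1.11 across DHA. By its symbol Ndufa4 is counted in complex I here, at 682 CPM in Con and 494 in Veh.LPS.0, although its product has been assigned to complex IV. The size of the step from Con to Veh.LPS.0 depends on that placing, and the ratio was not recomputed. Nuclear complex IV UMIs per complex II UMI were 12.0 in Con, 13.7, 13.3 and 16.5 across Veh and 13.2, 14.0 and 16.0 across DHA.

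Within complex I the core subunits differed widely among themselves. Ndufs7 is an iron-sulphur subunit next to the ubiquinone site. Among nuclear members with a UMI in enough cells to be counted, it was the lowest at 4 h in both arms. It stood at 245.0 CPM in Con, 199, 183 and 103 across Veh and 207, 175 and 113 across DHA, which is 0.519 of its 0 h level in Veh (95% interval 0.504 to 0.534) and 0.548 in DHA (0.523 to 0.573). Most of that step lay between 1 and 4 h. Ndufs8, which carries further iron-sulphur clusters of the same arm, stood at 112 CPM in Con, 100.8, 90.1 and 97.6 across Veh and 104, 90.1 and 92.8 across DHA, or 0.968 and 0.895 of the 0 h level. Core subunits that work side by side thus differed by more than their counting intervals. Ndufv2, a subunit of the NADH-oxidising module, stood at 265 CPM in Con, 229.9, 202 and 136 across Veh and 244, 201.5 and 144 across DHA. Ndufv1, the flavin-bearing subunit of that module, was at 0.854 of its 0 h CPM in Veh and 0.722 in DHA. Ndufs1 and Ndufs3, further core subunits, lay at log2 ratios of -0.55 and -0.44 in Veh and -0.52 and -0.47 in DHA.

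Among the accessory subunits, Ndufb10 stood at 166 CPM in Con, 153, 132 and 83.2 in Veh and 146 or 121 in DHA at 0 and 1 h, with 90.4 at 4 h. Ndufv3, a small regulatory subunit of the NADH module, differed from it in that Con was not the highest library: it stood at 154 CPM in Con, 219.5, 182 and 123 across Veh and 223, 198 and 131 across DHA. Ndufb2 was the accessory subunit nearest to its 0 h level at 4 h, with log2 CPM ratios of -0.04 in Veh and -0.03 in DHA. Ndufa5 stood at 196 CPM in Con, 123, 107 and 82.4 across Veh and 112, 107 and 89.4 across DHA. Its log2 CPM ratio was -0.66 in Veh.LPS.0 against Con, and -0.58 in Veh and -0.33 in DHA at 4 h against 0 h. Uqcrb, a subunit of complex III that touches the ubiquinone site, was likewise near its 0 h level at 4 h in CPM. TMM scaling adds 0.43 in Veh and 0.30 in DHA to the log2 ratios of 4 h against 0 h, which puts Ndufb2 and Uqcrb above their 0 h level.

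All 4 complex II subunits stood lower at 4 h in both arms in CPM. Sdha, the flavoprotein that oxidises succinate, stood at 99.4 CPM in Con, 83.3, 80.2 and 54.8 across Veh and 85.4, 74.6 and 53.6 across DHA. Sdhb, the iron-sulphur subunit, stood at 185 CPM in Con, 183, 183 and 134 across Veh and 193, 169.6 and 146 across DHA. Both had most of their step after the first hour in Veh. Sdhc, a membrane anchor, was at 0.723 and 0.728 of its 0 h CPM in Veh and DHA. Sdhd, the other anchor, already differed between Con and Veh.LPS.0, at 276 CPM in Con, 183, 148 and 117 across Veh and 177, 144 and 110 across DHA. Among nuclear members with a UMI in enough cells to be counted, it was in the 3 lowest at 1 h in both arms.

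In complex III, Uqcrfs1, the Rieske iron-sulphur protein, was at 0.708 of its 0 h CPM in Veh and 0.755 in DHA at 4 h, and Uqcrc1, a core protein, at 0.912 and 0.851. In complex IV, Cox4i1, the regulatory subunit that binds ATP, stood at 1238 CPM in Con, 1290, 1187 and 1095 across Veh and 1318, 1174 and 1127 across DHA. Cox5a, another early subunit of assembly, stood at 1306 CPM in Con, 1076, 985 and 804 across Veh and 1039, 925 and 800.4 across DHA. In CPM, Cox4i1 thus stayed within the limit in each arm and Cox5a passed it at 4 h in both. The log2 CPM ratios at 4 h were -0.42 in Veh and -0.38 in DHA for Cox5a, and -0.50 and -0.41 for Uqcrfs1. TMM scaling adds 0.43 in Veh and 0.30 in DHA, which brings both genes within the limit.

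From Con to Veh.LPS.0 the nuclear members were lower in CPM by about as much as all genes. Their median log2 CPM ratio was -0.12, as for all genes at -0.12. Of 59 past the 50% limit, 10 were lower and 4 higher past that limit, where 28.2% of all genes were lower and 15.4% higher, so fewer members than genes at large passed in either direction. The lowest were Ndufa5 at -0.66, Sdhd at -0.59 and Ndufb7 at -0.54. The highest of the 59 were Cox7a2l at 0.56, a gene linked to respiratory supercomplexes, Ndufv3 at 0.51, Uqcrq at 0.38 and Ndufa6 at 0.32. Cox7a2l stood at 428 CPM in Con, 633, 582 and 509 across Veh and 637, 562 and 532 across DHA, below every other library in Con. Nuclear-retained RNA (Malat1, Neat1 and like transcripts) moved with this comparison, its summed level being 6897 CPM in Con and 13699 to 18550 CPM in the other libraries, and its part in these values was not tested.

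DHA against Veh gave few differences among the nuclear members. The median log2 CPM ratio was 0.003 at 0 h, -0.01 at 1 h and 0.007 at 4 h, while that of all genes was -0.04, -0.05 and 0.06. At 0 h 1 member of 60, Cox6a2, was higher and none lower, where 3.78% of all genes were higher and 6.15% lower. At 1 h and 4 h none of 59 passed in either direction, where 4.37% and 8.59% of all genes were higher and 7.11% and 5.34% lower. These counts take only members with a UMI in enough cells to be counted. Cox6a2 entered at 0 h only through DHA.LPS.0, where it had a UMI in 50.3% of cells, against 32.8% in Veh.LPS.0. The DHA.LPS.0 cells were also deeper, at a median of 46928 UMIs against 36897. At 1 h and 4 h Cox6a2 was under the 50% limit and outside the 59, although DHA was 2.42-fold and 2.11-fold above Veh. Besides Cox6a2, the 60 at 0 h ran from -0.22 (Ndufa3, an accessory subunit of complex I) to 0.19 (Ndufv1). The 59 ran from -0.18 to 0.16 at 1 h and from -0.18 to 0.32 at 4 h. Uqcrh, the hinge protein of complex III, was among the 3 lowest of the counted members at every hour, at -0.19, -0.18 and -0.17. Ndufb9, an accessory subunit of complex I, was the highest of the 59 at 4 h, at 0.32. Over all barcodes, a setting tried after the data were seen, the 3 medians were -0.26, -0.27 and -0.27. The mitochondrial share of the total was also higher in the DHA libraries there, and CPM is taken over that total. As a share of the UMIs that are not mitochondrial, the members there held 1.93%, 1.73% and 1.47% across Veh and 1.86%, 1.70% and 1.39% across DHA.

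Cox6a2 had the widest range of the nuclear members with a mean of at least 10 CPM. It encodes the isoform of complex IV subunit VIa known from heart and skeletal muscle, whereas Cox6a1 encodes the isoform of most other tissues. Cox6a2 stood at 1.85 CPM in Con (95% interval 1.62 to 2.1), 22.5, 20.9 and 16.3 in Veh and 49.0, 50.7 and 34.5 in DHA. Every DHA library was above every Veh library, and Con was below them all. The ratio of Veh.LPS.0 to Con was 12.2 (10.6 to 14.0). DHA was 2.18-fold above Veh at 0 h (2.05 to 2.32), 2.42-fold at 1 h (2.27 to 2.59) and 2.11-fold at 4 h (1.92 to 2.32). After 4 h of LPS it was at 0.727 of its 0 h CPM in Veh and 0.704 in DHA, where all genes also had medians below 1. Over all barcodes the levels were 1.84 CPM in Con, 21.3, 20.8 and 15.2 across Veh and 42.4, 46.4 and 31.6 across DHA.

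With every cell thinned to 20000 UMIs, Cox6a2 had a UMI in 2.51% of Con cells, in 23.5%, 22.5% and 18.8% of Veh cells and in 36.8%, 36.9% and 30.5% of DHA cells. Without thinning the shares were 4.92% in Con, 28.2% to 32.8% in Veh and 39.7% to 50.3% in DHA. Its UMIs were uneven among cells: the 10% of cells with most held 70.0%, 71.2% and 74.6% of them in Veh and 57.6%, 55.7% and 62.5% in DHA. This share depends on the level of a gene: for Cox4i2, at 17.0 CPM in Con and 14.5 CPM in Veh.LPS.0, the 10% of cells with most held 52.3% and 55.1%. Cox6a1 stood at 286 CPM in Con, 306, 304 and 241 across Veh and 294, 306 and 262 across DHA. Its steps were smaller than those of Cox6a2, at 1.07 for Veh.LPS.0 against Con, 0.788 and 0.890 for 4 h against 0 h in Veh and DHA, and 1.09 for DHA against Veh at 4 h. On RefSeq the end of Itgad overlaps Cox6a2, and Itgad had 0 or 1 UMI in each library.

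The other tissue-restricted isoforms were low. Cox4i2, an isoform known from lung and linked to hypoxia, stood at 17.0 CPM in Con, 14.5, 11.6 and 6.62 across Veh and 11.2, 11.5 and 5.90 across DHA. It was lowest at 4 h of LPS in both arms, at 0.455 (0.406 to 0.510) and 0.524 (0.427 to 0.641) of the 0 h level, though under the 50% limit. Cox4i2 overlaps Bcl2l1 on RefSeq, so its counts are uncertain. Cox7a1, the muscle isoform of subunit VIIa, stood at 4.74 CPM in Con, 7.80, 6.48 and 4.74 across Veh and 6.68, 6.19 and 3.04 across DHA. Its widespread isoform Cox7a2 stood at 845 CPM in Con, 718, 639 and 644 across Veh and 684, 635 and 608 across DHA. Ndufa4l2, a hypoxia-linked relative of Ndufa4, had 103 UMIs in all and at most 0.828 CPM, in DHA.LPS.0. Ndufa4 itself stood at 682 CPM in Con, 494, 430 and 404 across Veh and 466, 425 and 397 across DHA.

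**Figure D5:**
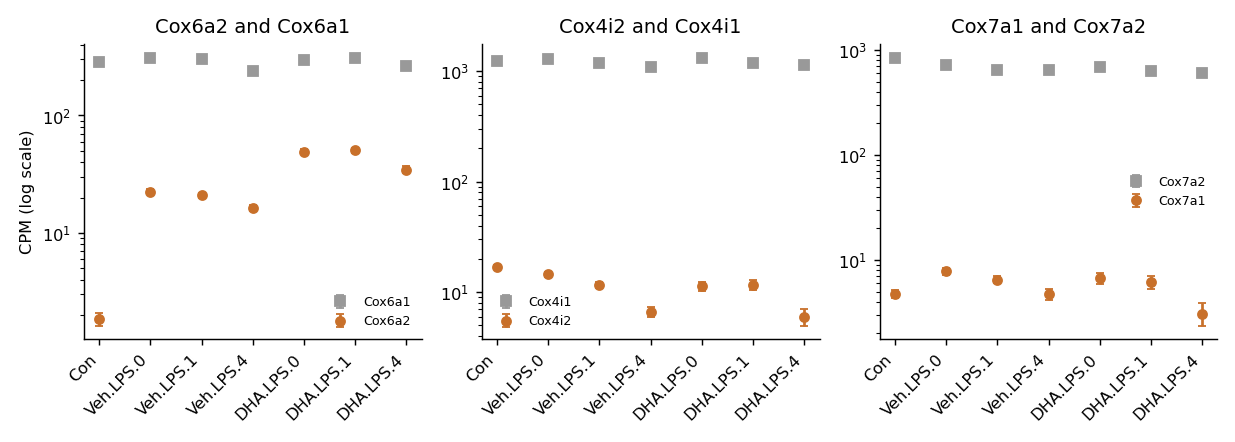
CPM on a log axis of 3 pairs of complex IV isoforms in each library, a tissue-restricted isoform (orange circles) and its widespread relative (grey squares), with 95% Poisson intervals of the summed UMIs as bars; values are to be compared between libraries and not between genes. Cox6a2 goes from 1.85 CPM in Con to 22.5 in Veh.LPS.0 and 49.0 in DHA.LPS.0, while Cox6a1 stays between 241 and 306 CPM.

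Among the 61 nuclear members with a mean of at least 10 CPM, the ratio of highest to lowest CPM over the 7 libraries was 27.5 for Cox6a2 and 2.88 for Cox4i2. Ndufa4l2 and Cox7a1 are under that mean and are left out here. Over the 61 the median ratio of highest to lowest CPM was 1.48, and the smallest was 1.19 for Ndufa1, an assembly-critical accessory subunit of complex I. Sdhd ranged over 2.51-fold, Ndufs7 over 2.38-fold, Ndufa5 over 2.37-fold, Ndufb10 over 2.0-fold, Ndufs1 over 1.97-fold and Ndufv2 over 1.95-fold. In these 6 the highest library was Con and the lowest a 4 h LPS library. The mitochondrial members ranged over 1.10-fold to 1.73-fold. Of the nuclear members, 20 of 63 overlap another gene on RefSeq (GRCm38.p6), and how reads there were divided is uncertain.

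The nuclear share was lower in barcodes over the mt- limit, while within kept cells it varied less with the mitochondrial share. In DHA.LPS.0 the nuclear members held 1.95% of non-mitochondrial UMIs in the 568 kept cells with 5% to 10% mt- UMIs and also in the 57 with 10% to 15%, 1.65% in the 55 with under 5%, and 1.48% in the 64 deep barcodes at 20% or more. In Veh.LPS.4 the share was 1.56% in the 829 cells with 5% to 10%, 1.45% in the 64 with less and 0.994% in the 102 barcodes over the limit. In Veh.LPS.1 it was 1.71%, 1.75% and 1.76% in cells with under 5%, 5% to 10% and 10% to 15%. The barcodes over the limit in DHA.LPS.0 and Veh.LPS.4 were at a median depth of 23548 and 23948 UMIs against 48219 and 57753 in the 5% to 10% cells. Within kept cells the correlation of the mitochondrial share with the nuclear share of the rest was weak, from -0.06 in Veh.LPS.4 to 0.27 in DHA.LPS.4, over 692 to 3073 cells of 1 library each, which share depth and preparation.

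The lists of related genes behaved unequally at 4 h of LPS, and part of them turned direction with the scaling. With TMM the medians were 0.09 and -0.003 in Veh and DHA for ATP synthase, -0.09 and -0.20 for the citric acid cycle, -0.15 and -0.30 for assembly factors, 0.39 and 0.26 for transcription and RNA handling, 0.47 and 0.30 for biogenesis regulators, and -9.4e-05 and -0.11 for electron carriers. The values that follow are in CPM, and their counts are to be read against 47% of all genes lower in Veh and 44.3% in DHA at 4 h, a share that ATP synthase lay near. Nuclear ATP synthase genes, whose products form the rest of complex V, had a median log2 CPM ratio of -0.34 in Veh and -0.30 in DHA, with 9 and 7 of 15 lower and none higher. Citric acid cycle genes had -0.52 and -0.50, with 15 of 18 lower in each arm and none higher. Ogdh, the first enzyme of the oxoglutarate dehydrogenase complex, was the lowest of them, at -1.02 and -0.85. Assembly factors had -0.58 and -0.60, with 18 of 28 and 19 of 30 lower and 3 higher in each arm. Ecsit is an assembly factor of complex I that is also an adaptor in Toll-like receptor signalling. Of the 28 in Veh and 30 in DHA with a UMI in enough cells to be counted, it was the lowest. It stood at -1.78 in Veh and -1.73 in DHA. Sco2, a copper chaperone of complex IV, was the highest, from 24.5 to 65.6 CPM in Veh and from 20.2 to 57.7 in DHA. Genes of mitochondrial transcription and RNA handling had a median of -0.04 in each arm, with 3 higher and 2 lower of 14 in Veh and 2 higher and 3 lower of 13 in DHA. In Veh.LPS.0 against Con that list was at -0.43, with 10 of 14 lower and 1 higher, where 28.2% of all genes were lower.

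Electron carriers and linked enzymes were the 1 list with members higher with DHA at each hour. These were 2 of 12, 2 of 10 and 2 of 10 at 0, 1 and 4 h, where 3.78%, 4.37% and 8.59% of all genes were higher. Assembly factors and transcription and RNA handling each had 1 higher at 4 h. The 2 electron carrier genes were the same at 0, 1 and 4 h: Etfb, a subunit of the flavoprotein that takes electrons from fatty acid oxidation to ubiquinone, at log2 CPM ratios of 0.49, 0.43 and 0.48, and Coq3, a methyltransferase of ubiquinone synthesis, at 0.46, 0.46 and 0.59. With 4 h of LPS, 7 of 11 in Veh and 8 of 12 in DHA of the list were lower in CPM and none was higher. Of all genes, 47% in Veh and 44.3% in DHA were lower, and 17.6% and 17.7% higher. The medians of the list were -0.43 and -0.41 in CPM, and -9.4e-05 and -0.11 with TMM. Coq9, needed for ubiquinone synthesis, was the lowest of those 11 and 12, at -1.47 and -1.41. Genes with a UMI in too few cells to be counted are left out of that ranking. The list also holds Cyc1 and Ndufab1, which the symbol rule did not take in as respiratory chain members. Among regulators of mitochondrial biogenesis, Pprc1, a coactivator related to PGC-1, was higher at 1 h in both arms, at 0.78 and 0.97. Sirt3, a mitochondrial deacetylase, stood at 12.7 CPM in Con, at 16.4, 7.30 and 3.33 over the hours in Veh and at 17.0, 8.08 and 4.22 in DHA. It had a UMI in enough cells to be counted only in DHA.LPS.0, which was also its highest library. Its steps in Veh were therefore not among the calls.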

How the data were processed

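Counts were the authors' deposited gene-by-barcode matrices from a droplet 3' single-cell kit, 1 per condition, made with Cell Ranger. The submitters' processing notes and the file headers give Cell Ranger 3.1.0 and build mm10. The study's methods name another version of it. Counts are whole UMIs, not normalized, and how multi-gene reads were counted is not given in the sources used here.

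Kept cells had more than 20000 UMIs, at least 2000 genes and under 20% mt- UMIs. The study's own cell lists were not used, and no doublet caller was run. Leaving out the top 5% of cells by UMIs was the alternative for doublets. Counts were summed over kept cells and divided by the library total (CPM). Ratios have exact binomial 95% intervals (scipy 1.17.1) for counting error only. They were checked on simulated libraries. TMM factors came from edgeR 4.0.16, with no model fitted. The replicate is the library, so n is 1 per condition. Members, gene lists and comparisons were chosen with earlier results of these data known. Named genes are the mitochondrial members, the Sdh genes, core subunits, isoform pairs, the 3 highest and lowest nuclear members of each comparison, the 8 with the widest range and the 2 highest and lowest of each related list. The highest and lowest of a comparison or list were taken among genes with a UMI in enough cells to be counted. Ndufa6 and the pair mt-Co1 and mt-Nd1 were named after their values were seen. Positions and overlaps came from RefSeq (GRCm38.p6), where all 63 nuclear members matched. No sequence is shown, and some genes that the rule names are not reported here.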

Additional observations from a re-analysis of the deposited data

How the results depend on the processing

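Each condition has 1 library, so variation from library to library cannot be measured here. No paired analysis was possible because the groups share only the number 1 and no test was made. The mt- limit sets the mitochondrial sum, CPM is bound to the total, and both are more fragile than ratios within the set. The setting with all barcodes was added after the data were seen. Comparisons below run in the order Veh.LPS.0 against Con, then 1 h and 4 h against 0 h in Veh, 1 h and 4 h against 0 h in DHA, then DHA against Veh at 0, 1 and 4 h. The causes of the changes were not tested except where the setting itself fixes them.

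The median log2 CPM ratio of the nuclear members with TMM factors was -0.167, -0.0784, 0.0557 (reversed), -0.0481 and -0.0574 in the first 5 comparisons and -0.115 in the last. Over all barcodes it was -0.164 in the first, -0.465 and -0.464 at 4 h in Veh and DHA, and -0.263, -0.270 and -0.268 for DHA against Veh. The other 68 values, under these and 8 more settings, stayed between the medians of the lower and of the upper limits of the members' counting intervals. These limits cover counting error of single genes and not the spread of the median. Nuclear members lower past 0.32 on the log2 scale at 4 h numbered 33 in each arm in CPM but 4 in Veh and 6 in DHA with TMM, with 5 higher in Veh. Over all barcodes 21, 19 and 14 were lower with DHA than with Veh, and 2, 2 and 1 higher, where 37.9%, 47.1% and 30.1% of all genes were lower and 5.93%, 7.40% and 7.51% higher. At most 3 were lower at 1 h in any other setting.

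The log2 ratio of the summed mitochondrial CPM with TMM factors was -0.0430, -0.0124, 0.331, 0.0765, 0.155, -0.000287, 0.0887 and -0.176, those 3 of LPS at 4 h in Veh and at both hours in DHA being reversed. With cells under 10% mt- UMIs it was -0.0315, -0.0790 and -0.129 in the first 3, then -0.126, -0.0509, -0.00377 (reversed) and -0.0476 in the last 4. With no limit on mt- UMIs it was 0.0108, -0.113, 0.0531 (reversed), -0.0790, -0.235, 0.211 (reversed), 0.245 and -0.0768. As a mean over cells it was -0.00385, -0.105, -0.0640, -0.0382, -0.171, -0.00173, 0.0656 and -0.108. Without the top 5% of cells it was -0.00402, -0.0972, -0.106, -0.0208, -0.141, -0.0147, 0.0617 and -0.0494. Over all barcodes it was 0.135, -0.135, 0.208 (reversed), -0.0959, -0.0352, 0.978 (reversed), 1.02 and 0.735 (reversed). Leaving the first and sixth comparisons aside, it was -0.108, -0.108, -0.0360, -0.156, 0.0623 and -0.0578 with mt- UMIs out of the total, and -0.0942, -0.0951, -0.0171, -0.132, 0.0686 and -0.0457 with cells over 10000 UMIs.

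The log2 change of the mt-Co1 to mt-Nd1 ratio and the Cox6a2 log2 ratio were recomputed under each choice of cells. Of 40 values each, none was reversed, and 17 and 2 moved past their counting interval.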
